A study of Mus musculus with 6 samples.

Results

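The nuclear genes that encode respiratory complexes II to V were followed through 6 Smart-seq2 libraries from the dentate gyrus of the mouse hippocampus. The genes were taken by symbol from a deposited table of 55367 symbols: Sdha to Sdhd for complex II, the Uqcr genes and Cyc1 for complex III, the Cox4 to Cox8 genes for complex IV and the Atp5 genes for complex V. That gave 49 genes, of which 4 belong to complex II, 9 to complex III, 19 to complex IV and 17 to complex V. A further 10 symbols with the ending for pseudogenes (-ps) were left out and are described only beside their parent genes. The annotation classes 1 of the 49, Cox6c2, as a processed pseudogene too.

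All mice carried the TRAP2 and Ai9 alleles (Fos-iCreERT2 with Rosa26-LSL-tdTomato), in which the promoter of the activity gene Fos drives an inducible Cre recombinase and Cre switches on the red protein tdTomato. All had been through learned helplessness, a stress procedure after which animals stop trying to escape, and cells active around it were meant to be labelled. Non-runners (NR) gave 3 libraries, and mice that ran voluntarily over 28 days (Run) gave the other 3. Sorted red cells were the material, and the number of cells and animals behind a library, and the age of the mice, are not given in the sources used here. Values listed for a group are in the order of replicates 1, 2 and 3.

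The respiratory chain in the inner mitochondrial membrane passes electrons from nutrients to oxygen and stores the energy as a proton gradient. Complex II (succinate dehydrogenase) feeds electrons from the citrate cycle into ubiquinone, complex III passes them to cytochrome c, complex IV (cytochrome c oxidase) hands them to oxygen, and complex V (ATP synthase) uses the gradient to make ATP. Complex II is wholly nuclear-encoded, whereas complexes III, IV and V combine nuclear subunits with a few made from mitochondrial DNA. Neurons depend on this pathway to restore ion gradients after firing, and astrocytes and other brain cells carry it as well.

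Levels are FPKM, fragments scaled by transcript length and by library size, so they may be compared between genes. Differences are Run minus NR of log2(FPKM + 1), which understates differences of low genes. They come from limma's moderated test over all 6155 genes that reached FPKM 1 in 3 or more libraries, adjusted by Benjamini-Hochberg, with a threshold of 0.05. The summed FPKM of a library was 473786 to 492021, and the read depth behind it is unknown. As a check of the label, 3 of 10 pan-neuronal markers and 0 of 8 granule neuron markers, against 7 of 10 astrocyte markers, reached FPKM 1 in all 6 libraries. So did 3 of 10 oligodendrocyte, 3 of 8 endothelial, 3 of 8 mural, 1 of 8 microglial and 0 of 6 choroid plexus and ependymal markers. Summed FPKM was 277, 762 and 984 across NR and 1119, 692 and 646 across Run for the pan-neuronal list and 4709.7, 2498 and 3817 across NR and 2803, 5339 and 2679.9 across Run for the astrocyte list. For the endothelial list it was 966, 2323 and 846 across NR and 848, 1096 and 1682 across Run. For the oligodendrocyte list it was 257, 1477 and 1545 across NR and 183, 622 and 998 across Run. C1ql3, Dsp, Dock10 and Trpc6 of the granule list stayed below 1 in every library. Which cells gave the respiratory transcripts was not tested, and fewer cells of a type cannot be told apart from less RNA per cell.

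The structural subunits were among the most abundant and most evenly detected messenger RNAs of these libraries. Of the 49 genes, 42 (85.7%) reached FPKM 1 in all 6 libraries, against 1751 (3.16%) of all symbols, and 38 had a mean of at least 100 FPKM. Gene class was not matched here: 48 of the 49 are protein-coding, whereas 38006 of all symbols were listed at 0 in every library. Cox8a, a small subunit of complex IV, had the highest mean at 671 ± 268 FPKM (SD over 6 libraries), followed by Cox4i1 at 661 ± 209 and the ATP synthase subunit gene Atp5md at 638 ± 198. These 3 ranked 66, 69 and 73 by mean among all symbols, and 9 of the genes were among the 100 highest. The SDs of these 3 overlap, so their order is not settled by 6 libraries. Of the 7 genes not detected throughout, all of complex IV, 4 were listed at 0 in every library and 3 were below FPKM 1 in some.

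**Figure D1:**
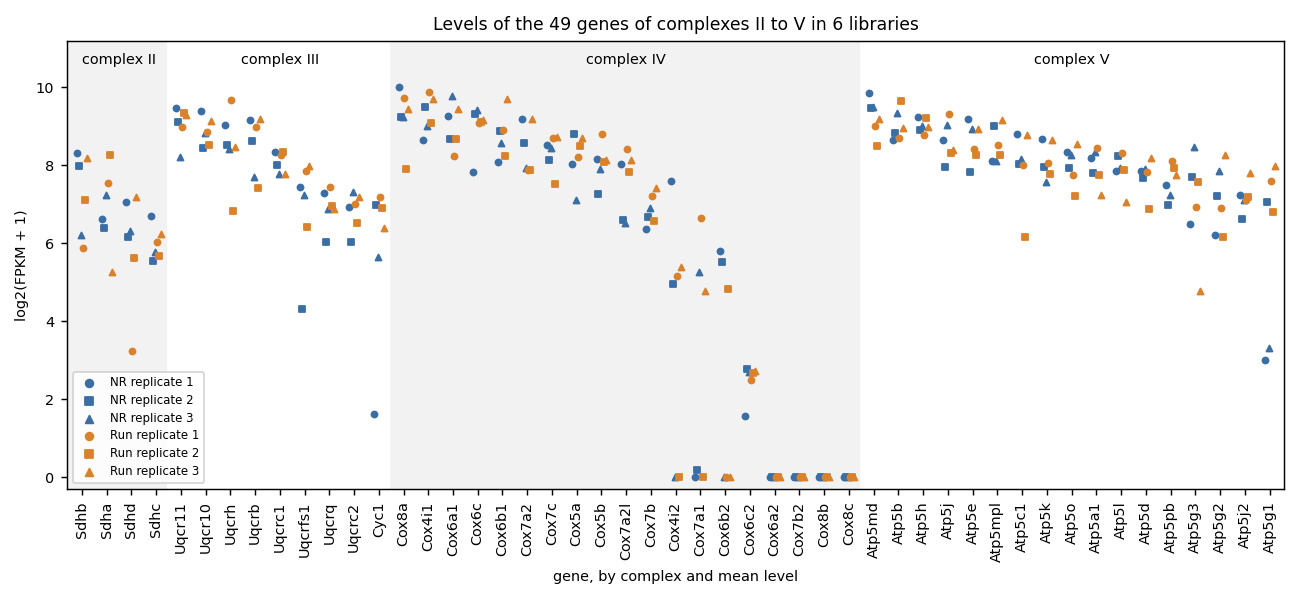
Level of each of the 49 genes as log2(FPKM + 1) on the vertical axis, one point per library, grouped by complex and ordered by mean level. Most genes sit in a narrow band near the top, while Cox6a2, Cox7b2, Cox8b and Cox8c are at 0 in each. Low libraries occur in both groups, such as NR for Cyc1, Atp5g1 and Uqcrfs1 and Run for Sdhd and Atp5g3.

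The spread between libraries was small for most of these genes and large for a few. Among the 42 genes detected throughout, the highest library exceeded the lowest by a median of 2.59-fold, and 26 (61.9%) stayed within 3-fold. Over all 624 symbols detected throughout with a mean of at least 100 FPKM the median was 3.63-fold, and 39.1% stayed within 3-fold. The steadiest was Atp5h, the d subunit of the ATP synthase stalk, at 605, 481 and 513 FPKM across NR replicates 1 to 3 and 435, 594 and 508 across those of Run. Its highest library was 1.39 times its lowest. The least steady was Cyc1, at 70.0 times.

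Genes that help build the complexes were detected far less often than the subunits themselves. Of 38 assembly factors of complexes II to V, 4 reached FPKM 1 in all 6 libraries, 28 in some and 6 in none, and the median of their mean levels was 14.2 FPKM against 243 for the 49 subunit genes. The 4 were Cox17, a copper chaperone of complex IV, Cox14 and Coa3, which act on newly made mt-Co1, and Uqcc2, which acts on cytochrome b. Cox17 had 191, 149 and 147 FPKM across NR and 267, 89.3 and 98.3 across Run. Sco1, Bcs1l and Ttc19, which serve copper delivery to complex IV and late steps of complex III, stayed below FPKM 1 in every library. Complex I subunits lay between these groups, with 28 of 40 detected throughout and a median of 133 FPKM. The difference in detection between the groups was not tested.

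**Figure D2:**
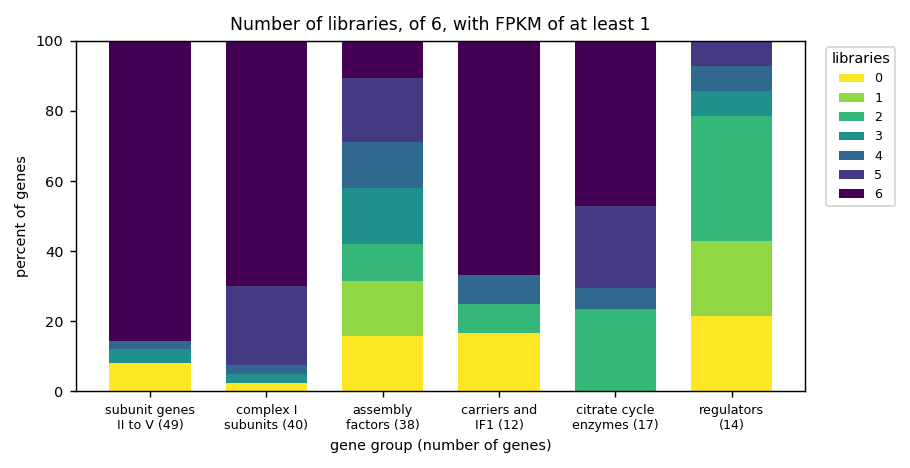
Percent of the genes of each group (vertical axis) by the number of libraries, of 6, in which FPKM was at least 1 (colours). Of the 49 subunit genes of complexes II to V, 42 reached it in all 6 libraries, against 4 of 38 assembly factors and 0 of 14 regulators.

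Complex II had the lowest levels of the 4 complexes, with a median of 112 FPKM over its genes. Sdha, the flavoprotein that oxidises succinate, had 98.5, 82.5 and 151 FPKM across NR replicates 1 to 3 and 186, 306 and 37.7 across those of Run. Its highest and lowest libraries are both in Run, and the groups overlap. Sdhb, the iron-sulfur subunit, had 319, 252 and 73.9 FPKM across NR and 57.9, 138 and 293 across Run, with replicate 3 of NR and replicate 1 of Run low. The membrane anchor gene Sdhd had 134, 70.3 and 79.2 FPKM across NR and 8.35, 48.7 and 146 across Run. Run replicate 1 was far below the rest for Sdhd and replicate 3 the highest of all, so the groups overlap. The other anchor gene, Sdhc, was steadier at 65.5 ± 21.3 FPKM (SD, n = 6). The log2 differences were 0.27 ± 0.85 (SE) for Sdha, -0.45 ± 0.82 (SE) for Sdhb, -1.16 ± 1.08 (SE) for Sdhd and -0.024 ± 0.66 (SE) for Sdhc, and none passed (limma adjusted p = 0.978 for Sdhd, the smallest of the 4).

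Sdha and Sdhb, which form the catalytic head of the complex together, did not follow each other across libraries. Sdha was highest in Run replicate 2 (306 FPKM), where Sdhb had 138. Sdhb was second highest in Run replicate 3 (293), where Sdha was lowest (37.7). Without Run replicate 2 the difference of Sdha was -0.35, and without Run replicate 1 that of Sdhb was 0.15, each the opposite sign of its value over all libraries.

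Complex III genes were detected in every library, with the small membrane subunits Uqcr11 and Uqcr10 highest. Uqcr11 and Uqcr10 had means of 559 ± 147 and 476 ± 123 FPKM (SD, n = 6). Uqcr11 had 715, 553 and 298 FPKM across NR replicates 1 to 3 and 509.9, 648 and 630.3 across those of Run. Uqcr10 had 671, 345 and 453 FPKM across NR and 459, 367 and 563 across Run, and for both genes the groups overlap. Uqcrh, the acidic hinge subunit that helps dock cytochrome c, had 525, 364 and 343 FPKM across NR and 814, 113 and 357 across Run. Both its highest library, Run replicate 1, and its lowest, Run replicate 2, were runners. The structural core gene Uqcrc1 was steady at 275 ± 50.3 and its partner Uqcrc2 lower at 118 ± 35.1. Uqcrb and Uqcrq, which lie near the ubiquinone site, had 406 ± 181 and 125 ± 37.3.

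The redox subunits Cyc1 and Uqcrfs1 had the widest spread in complex III. Cyc1 (chromosome 15, 76343523 to 76346260), which encodes the haem protein cytochrome c1, had 2.08, 126 and 49.3 FPKM across NR replicates 1 to 3 and 146, 119 and 82.7 across those of Run. NR replicate 1 was far below all others, and the groups overlap. NR replicate 1 also had the lowest summed pan-neuronal level (277 FPKM, against 646 to 1119 elsewhere). Its granule neuron sum (0.298, against 21.5 to 160) and microglial sum (55.0, against 179 to 840) were the lowest too. The sums of the other marker lists were not lowest there, and that of the mural list was the highest (1444). That library had the fewest genes at FPKM 1 or more (5426, against 5534 to 7355). The part of any of these in the Cyc1 value was not tested. The log2 difference of Cyc1 was 2.08 ± 1.38 (SE) with a 95% interval of -1.19 to 5.34 and was 0.51 without NR replicate 1. Uqcrfs1, the Rieske iron-sulfur protein, had 173, 18.9 and 151 FPKM across NR and 231, 84.2 and 250.1 across Run, with NR replicate 2 low. Its log2 difference was 1.08 ± 0.97 (SE) and was 0.071 without that library. Neither gene passed (limma adjusted p = 0.978 for each).

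In complex IV the common isoforms were abundant in every library. Cox4i1 (chromosome 8, 120668222 to 120674207), the main form of the regulatory subunit 4, had 402, 725 and 519 FPKM across NR replicates 1 to 3 and 947, 540.2 and 837 across those of Run. The 2 highest libraries are Run and the lowest is NR, and the middle 3 overlap. Cox6a1, the widely expressed form of subunit 6a, had 619.9, 409.7 and 883 FPKM across NR and 303, 410.4 and 692 across Run. Cox8a had 1036, 607 and 602 FPKM across NR and 845, 241 and 693 across Run, lowest in Run replicate 2 and highest in NR replicate 1. The log2 differences were 0.50 ± 0.36 (SE), -0.46 ± 0.44 (SE) and -0.47 ± 0.53 (SE) in this order, and none passed (limma adjusted p = 0.978 for each).

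Subunits without a tissue-specific partner were also present in every library. Cox5a and Cox5b, the latter zinc-binding, had means of 318 ± 114 and 279.9 ± 96.4 FPKM (SD, n = 6). Cox5b had 288, 152 and 239 FPKM across NR and 448, 269.7 and 283 across Run, a log2 difference of 0.57 ± 0.44 (SE). Its highest library was Run replicate 1 and its lowest NR replicate 2, with overlap between. Cox6c and Cox7c had 535 ± 162 and 336 ± 91.9.

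For each subunit with a muscle-type or testis-type alternative, the alternative was listed at 0 in at least 2 of the 6 libraries. Cox6a2 and Cox8b, the heart and skeletal muscle forms, and Cox7b2 and Cox8c, known from testis, were listed at 0 in all 6 libraries. A listed 0 can be a failed estimate, so they are not called absent. Their common counterparts Cox6a1 and Cox8a are given above, and Cox7b had 82.1, 101 and 119 FPKM across NR and 146, 94.4 and 170.0 across Run, a log2 difference of 0.41 ± 0.52 (SE). Cox6b1, which bridges the dimer, had 273, 468 and 378 FPKM across NR and 476, 299.7 and 837 across Run. Its testis-type relative Cox6b2 had 55.2, 44.8 and 0 FPKM across NR and 0, 27.6 and 0 across Run, so 3 of 6 libraries were listed at 0, in both groups. Cox6b2 made up 16.8% of the Cox6b sum in NR replicate 1 and 8.42% in Run replicate 2. The log2 differences of Cox6b1 and Cox6b2 were 0.44 ± 0.46 (SE) and -2.16 ± 2.17 (SE).

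Cox4i2 (chromosome 2, 152754173 to 152765037), the oxygen-responsive isoform of subunit 4 best known from lung and vessel walls, was present in 4 libraries. It had 191, 30.1 and 0 FPKM across NR replicates 1 to 3 and 34.7, 0 and 41.01 across those of Run. NR replicate 1 stood far above the rest, where Cox4i2 made up 32.3% of the Cox4 sum, against at most 4.67% elsewhere. That library also had the highest summed level of the 8 mural cell markers, at 1444, 516 and 499 across NR and 724, 317 and 743 across Run. By the mean of log2(FPKM + 1), which weighs the 8 markers alike, Run replicate 1 was highest instead. Those means were 3.44, 3.17 and 3.03 across NR and 3.65, 2.88 and 2.88 across Run. Of those markers 3 (Acta2, Tagln and Rgs5) were at FPKM 1 in all 6 libraries, Kcnj8 and Abcc9 were below 1 in each, and Acta2 had 1015, 311 and 274 FPKM across NR and 350.1, 149.6 and 457 across Run. The part of mural cells in the Cox4i2 values was not tested. The log2 difference was -0.67 ± 2.36 (SE) and was 1.04 without NR replicate 1 and 1.09 without Run replicate 2, the opposite sign.

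The Cox7a family showed all of its forms. Cox7a2, the common form, had 582, 377 and 244 FPKM across NR and 233, 233 and 588 across Run, and Cox7a1, the muscle form, had 0, 0.126 and 37.3 FPKM across NR and 98.9, 0 and 26.4 across Run. Cox7a1 therefore reached FPKM 1 in 3 libraries, 1 of NR and 2 of Run. Cox7a2l (chromosome 17, 83501918 to 83517330), whose protein joins complexes III and IV into supercomplexes, had 263, 95.3 and 91.3 FPKM across NR replicates 1 to 3 and 343, 226 and 283 across those of Run. Its 2 lowest libraries were NR replicates 2 and 3, while NR replicate 1 lay among the Run libraries. Cox7a2l made up 31.1, 20.2 and 24.5% of the Cox7a sum across NR and 50.8, 49.1 and 31.5% across Run. The log2 differences were 1.08 ± 0.55 (SE) for Cox7a2l (95% interval -0.23 to 2.39), -0.25 ± 0.53 (SE) for Cox7a2 and 1.99 ± 2.27 (SE) for Cox7a1, and none passed (limma adjusted p = 0.978 for Cox7a2l).

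Complex V genes were all detected in every library, from the catalytic head to the membrane part. In the catalytic head, Atp5b, the beta subunit, had 402, 452 and 652 FPKM across NR replicates 1 to 3 and 413, 803 and 499 across those of Run, a log2 difference of 0.16 ± 0.37 (SE). Its highest library was Run replicate 2, and the other Run libraries lay within the NR range. Atp5a1, the alpha subunit, was lower at 259 ± 75.1 FPKM (SD, n = 6). The central shaft genes Atp5c1, Atp5d and Atp5e (gamma, delta and epsilon) had means of 292 ± 138, 218 ± 56.8 and 406 ± 135. The peripheral stalk genes Atp5h and Atp5o had 523 ± 65.7 and 268 ± 82.4, with the reservation for Atp5o that the annotation gives its symbol to 2 overlapping genes. Atp5h had a log2 difference of -0.061 ± 0.29 (SE) with an interval of -0.75 to 0.62, among the narrowest here. The other genes of the stalk and membrane part, Atp5j, Atp5j2, Atp5k, Atp5l and Atp5mpl, had means between 148 and 409 FPKM.

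Among complex V genes, 2 had groups that did not overlap, in opposite directions. Atp5md (chromosome 19, 47083471 to 47090647 in RefSeq), which encodes DAPIT, a small protein of the membrane part that helps ATP synthase form dimers, had 932, 712 and 724 FPKM across NR replicates 1 to 3 and 518, 359 and 581 across those of Run. The highest Run library lay below the lowest NR library. Its log2 difference was -0.72 ± 0.31 (SE) with an interval of -1.44 to 0.010, and it did not pass (limma adjusted p = 0.978). Atp5pb (chromosome 3, 105942698 to 105959263 in RefSeq), the b subunit of the peripheral stalk, had 181, 127 and 149 FPKM across NR and 274, 244 and 213 across Run. The lowest Run library lay above the highest NR library, and the log2 difference was 0.68 ± 0.41 (SE) (limma adjusted p = 0.978). Over all tested genes, groups were apart with Run below in 4.19% and with Run above in 4.76%, so 1 gene in each direction of 45 tested is a share near or below that background.

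The c subunit, which forms the rotating ring of ATP synthase, is encoded by 3 genes whose mature protein is the same and whose import signals differ. Their coding sequences are shown over a stretch of the mature part, because within it the genes differ only in bases that leave the protein the same. The lines give 60 bases of coding exon in GRCm38, all on the minus strand, at chr11:96073116-96073175 for Atp5g1, chr15:102663026-102663085 for Atp5g2 and chr2:73908605-73908664 for Atp5g3, in that order, with capitals at the 18 positions where the genes do not all have the same base.
Atp5g1: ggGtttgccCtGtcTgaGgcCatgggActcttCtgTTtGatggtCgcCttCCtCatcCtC
Atp5g2: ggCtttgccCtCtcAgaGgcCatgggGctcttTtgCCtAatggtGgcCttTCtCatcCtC
Atp5g3: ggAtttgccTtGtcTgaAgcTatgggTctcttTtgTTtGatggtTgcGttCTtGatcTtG
Over the last 225 coding bases Atp5g1 and Atp5g2 were identical at 191 (84.9%), Atp5g1 and Atp5g3 at 180 (80.0%) and Atp5g2 and Atp5g3 at 177 (78.7%). Over the coding bases before them, identity was 52.4%, 53.5% and 56.7% of the aligned columns for the same pairs. The stretch shown was chosen for its many differences.

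The 3 c subunit genes took different shares of their sum in different libraries. Atp5g1 (chromosome 11, 96068852 to 96075670) had 7.03, 133 and 8.91 FPKM across NR replicates 1 to 3 and 192, 112 and 252 across those of Run. Replicates 1 and 3 of NR were low, whereas NR replicate 2 lay within the Run range, so the groups overlap. Atp5g2 had 73.7, 148 and 233 FPKM across NR and 119.6, 70.3 and 304 across Run, and Atp5g3 had 88.8, 207 and 356 FPKM across NR and 122, 191 and 26.3 across Run. Atp5g3 was lowest in Run replicate 3, the library in which Atp5g1 and Atp5g2 were highest. As a share of the summed FPKM of the 3 genes, Atp5g1 held 4.14, 27.2 and 1.49% across NR and 44.2, 29.96 and 43.3% across Run, and Atp5g3 held 52.4, 42.4 and 59.6% across NR and 28.1, 51.2 and 4.51% across Run. The sum itself was 169.6, 487 and 598 across NR and 433, 373 and 583 across Run. The lowest sum was that of NR replicate 1.

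Atp5g1 had the smallest p of the 45 tested genes. Its log2 difference was 3.0 ± 1.18 (SE) with a 95% interval of 0.21 to 5.80, which did not survive adjustment (limma adjusted p = 0.956), and Run was higher than 2 of the 3 NR libraries only. Without NR replicate 2 the difference was 4.31 (limma adjusted p = 0.393), and without NR replicate 1 it was 2.28. The unadjusted p stayed under 0.05 in only 1 of the 6 fits that leave out a library, the one without NR replicate 2. The differences of Atp5g2 and Atp5g3 were 0.0049 ± 0.74 (SE) and -1.12 ± 0.90 (SE). That of Atp5g2 was -0.065 after quantile normalization and -0.031 after rescaling to the same nuclear sum.

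Set against all genes, the respiratory subunits gave no call between runners and non-runners. By limma, 0 of the 45 tested genes had an adjusted p under 0.05, as had 0 of all 6155 genes (0%). At an unadjusted p under 0.05 there was 1, Atp5g1, against 304 of all genes (4.94%). The differences were positive for 25 and negative for 20, with a median of 0.089 beside -0.034 over all genes. By complex, positive differences numbered 1 of 4 in complex II, 7 of 9 in complex III, 9 of 15 in complex IV and 8 of 17 in complex V, with medians of -0.23, 0.15, 0.28 and -0.061. Without Run replicate 2 the median over all 44 genes then tested was 0.27. The 4 genes listed at 0 throughout were not tested.

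These data bound the differences loosely. Differences of 1 or more on the log2 scale, in either direction, were seen for 8 of 45, against 48.7% of all tested genes. The 8 were Atp5g1, Cyc1, Cox7a1, Uqcrfs1 and Cox7a2l with positive and Atp5g3, Sdhd and Cox6b2 with negative values. Single libraries set some of these sizes: without Run replicate 1 the difference of Sdhd was -0.10, without Run replicate 3 that of Atp5g3 was -0.29, and those of Cyc1 and Uqcrfs1 are given above. The median half-width of the 95% interval was 1.198 for the tested members and 3.56 over all tested genes, most of which are lower. Among genes with a mean log2 level of at least that of 100 FPKM, it was 1.10 for 37 subunit genes and 1.31 for all 534. At that level, differences of 1 or more were seen for 3 of 37 and 54 of 534. For 31 of the 45 the interval lay within -2 and 2, and for 2, Uqcr10 (-0.93 to 0.83) and Atp5h (-0.75 to 0.62), it lay within -1 and 1. For the other 43 the interval held 1 or -1, so a difference of that size lay within it.

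**Figure D3:**
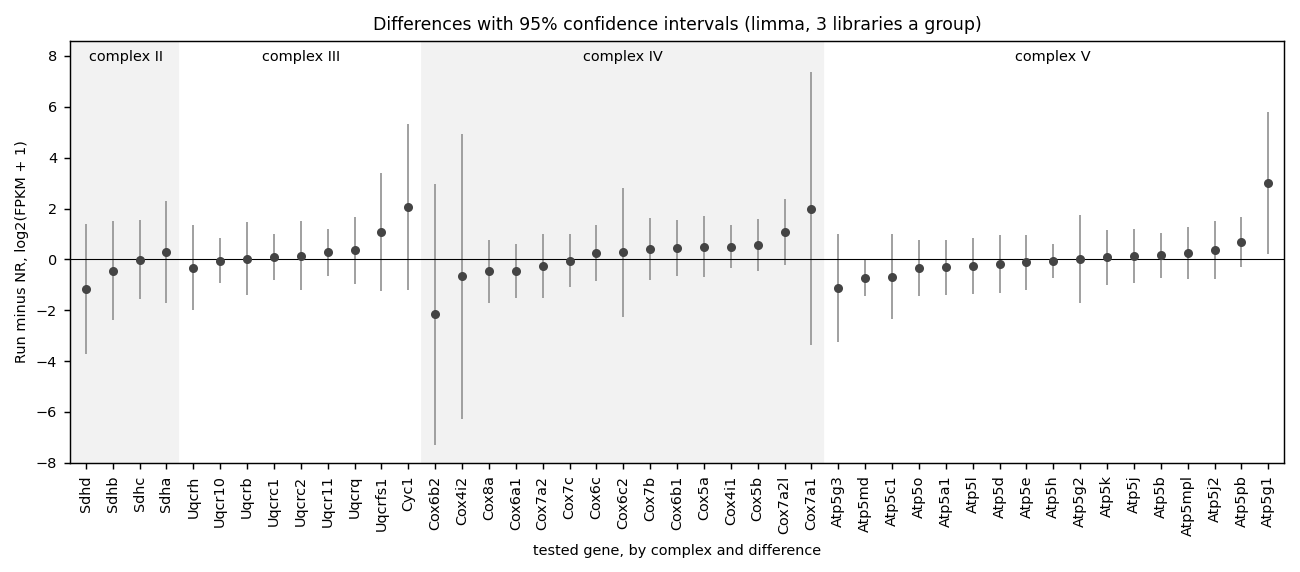
Difference between Run and NR in log2(FPKM + 1) for the 45 tested genes, with 95% confidence intervals from limma (3 libraries a group), ordered by difference within each complex. The intervals of 44 genes include 0, and the exception, Atp5g1, did not pass after adjustment.

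Summed over the genes of a complex, the groups also overlapped. The summed FPKM was 654, 451 and 358 across NR and 317, 543 and 552 across Run for complex II and 3262, 2185 and 1997 across NR and 3269, 2043 and 2950.4 across Run for complex III. For complex IV it was 4647, 4372 and 4291 across NR and 5133, 3438 and 5867 across Run, and for complex V 5628, 4826 and 5652 across NR and 5178, 4454 and 5785 across Run. Group means for complex IV were 4437 ± 187 for NR and 4813 ± 1246 for Run (SD, n = 3 each). The 3 NR libraries lay close together in complex IV, and the Run libraries lay on both sides of them. All 49 genes together took 2.19% to 3.08% of all FPKM in a library.

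The mitochondrially encoded partners of these subunits were far more abundant. Their 6 genes summed to 30157, 31194 and 28364 across NR and 26027, 39070.1 and 27033 across Run. The catalytic subunit gene of complex IV, mt-Co1, had 8591, 7096 and 7314 FPKM across NR and 4891, 9851 and 5806 across Run. Its partners in the core had 2619.7, 3664 and 1989.8 FPKM across NR and 3423, 3932 and 2439.9 across Run (mt-Co2) and 3278, 3493 and 2829 FPKM across NR and 2891, 4178 and 2798 across Run (mt-Co3), and in all 3 genes Run replicate 2 was the highest library. Cytochrome b of complex III (mt-Cytb) had 5991, 7209 and 6620.1 FPKM across NR and 6859.9, 7961 and 5842 across Run. The proton channel gene mt-Atp6 of complex V had 6689, 7047 and 6622 FPKM across NR and 5492, 9042 and 7082 across Run, and its neighbour mt-Atp8 had 2989, 2685 and 2989 FPKM across NR and 2471, 4105 and 3064 across Run. None passed, and the log2 differences ran from -0.22 to 0.26 (limma adjusted p = 0.978 for the smallest). Per gene, the mean of the mitochondrially encoded subunits was 16.5 to 35.1 times that of the nuclear ones detected throughout in complex III, 7.62 to 21.1 times in complex IV and 13.1 to 25.1 times in complex V.

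Run replicate 2 stood at opposite ends of the nuclear and mitochondrial values. It had the lowest sum of the 49 nuclear genes (10478 FPKM, against 11835 to 15155 in the other 5) and the highest sum of the mitochondrially encoded ones (39070.1, against 26027 to 31194). Its ratio of the mitochondrially encoded to the nuclear mean was the highest in complexes III, IV and V. It was the lowest library for 10 of the 42 genes detected throughout, as was NR replicate 2, while Run replicate 3 was the highest for 13. Run replicate 2 also had the highest summed astrocyte level (5339 FPKM, 10 markers, 5 others between 2498 and 4709.7) and the highest summed microglial level (839.7, 8 markers, 5 others between 55.0 and 553). The part of these cells in the values of that library was not tested.

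**Figure D4:**
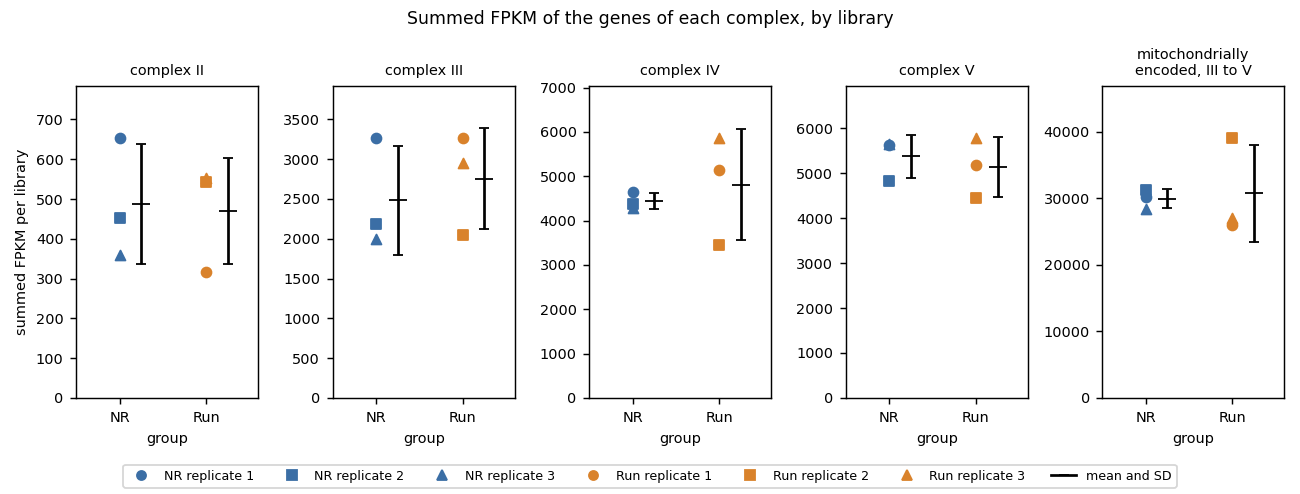
Summed FPKM per library (vertical axes, each from 0) for the nuclear genes of each complex and for the 6 mitochondrially encoded subunits, in NR and Run, with the mean and SD of 3 libraries beside the points. The groups overlap in every panel, and Run replicate 2 is lowest for complexes IV and V and highest for the mitochondrially encoded genes.

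Several subunit genes have processed copies elsewhere in the genome, and the values listed for some of these copies followed those of their parents. Cox6c2 (chromosome 12, 56373593 to 56373823), a copy of the complex IV gene Cox6c, had 1.97, 5.88 and 5.48 FPKM across NR and 4.64, 5.33 and 5.61 across Run, beside 227, 635 and 691 FPKM across NR and 539.8, 551 and 569.9 across Run for Cox6c. That is 0.793% to 0.984% of the parent in every library, while Cox6c itself varied 3.04-fold. The 2 transcripts were identical at 224 of 231 aligned positions, with an unbroken run of 145 identical bases. The lines show 60 coding bases of Cox6c and the matching bases of Cox6c2 (chr15:35937211-35937270 and chr12:56373763-56373822, GRCm38, minus strand), to show how few bases separate them, with capitals at the 4 positions that differ.
Cox6c: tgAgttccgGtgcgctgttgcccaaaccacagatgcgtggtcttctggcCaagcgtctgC
Cox6c2: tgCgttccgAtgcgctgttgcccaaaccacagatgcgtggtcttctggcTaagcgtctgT
Of the 7 differing positions between the 2 transcripts, this stretch holds 4 and was chosen for that.

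Other copies also held low shares of their parents. Atp5l, subunit g of ATP synthase, has 3, and Atp5l2-ps, Atp5l-ps1 and Atp5l-ps2 were identical to it at 99.4%, 98.4% and 94.6% of aligned positions and had medians of 6.37%, 2.31% and 1.15% of its FPKM. Cox5b-ps had 5.30% to 7.62% of Cox5b, and Cox7c-ps1 had 1.79% to 2.17% of Cox7c. Atp5c1-ps, identical to Atp5c1 at 90.7%, was listed at 0 in all 6 libraries. For 6 of the 11 copies the share of the parent varied less than 1.6-fold between libraries. Whether reads of the parents were assigned to the copies was not tested. The values of Cox6c, Atp5l, Cox5b and Cox7c are therefore uncertain by an amount that is not known.

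**Figure D5:**
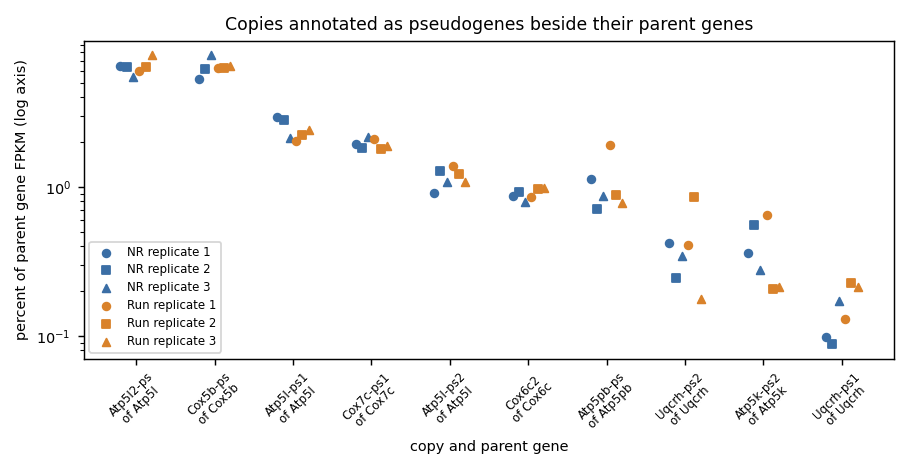
FPKM of each copy annotated as a pseudogene as a percent of its parent gene's FPKM (log axis), one point per library, for the 10 copies with values above 0 in all 6 libraries. The copies of Atp5l and Cox5b and that of Cox6c form tight groups, the highest single value being 7.63%.

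Mobile carriers and transporters that serve the complexes were mostly well detected, and 3 of 9 tested had groups that did not overlap. Cycs, which encodes cytochrome c, had 129, 57.5 and 58.0 FPKM across NR replicates 1 to 3 and 45.7, 36.2 and 31.3 across those of Run, all Run libraries being lower. Etfa, of the flavoprotein that brings electrons from fatty acid oxidation, had 122, 90.1 and 138 FPKM across NR and 52.6, 84.0 and 42.4 across Run, again with Run lower. Slc25a5, an ADP/ATP carrier of the inner membrane, had 169, 51.2 and 249 FPKM across NR and 252, 249 and 283 across Run. The highest of NR (248.8) lay just below the lowest of Run (249.2). The log2 differences were -1.0 ± 0.70 (SE), -0.99 ± 0.59 (SE) and 1.0 ± 0.65 (SE), and none passed (limma adjusted p = 0.978 for each). Over all tested genes 8.95% had groups apart in either direction. The more abundant ADP/ATP carrier gene Slc25a4 had 490.4, 359 and 374 FPKM across NR and 452, 342 and 235 across Run, and Atpif1, the inhibitor that stops ATP synthase from running backwards, had 340.2, 410.3 and 327 FPKM across NR and 498, 226 and 230.1 across Run, with overlapping groups. The list as a whole had 4 positive and 5 negative differences, with a median of -0.051. That median is the value of Ndufa4, a gene also counted by its symbol in the complex I list. Its place in either list does not say which complex its protein belongs to.

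Of the 38 assembly factors 22 were tested, with 12 positive and 10 negative differences and a median of 0.17. None passed, and 2 had an unadjusted p under 0.05, where the share over all genes is 4.94%. Groups were apart for 3, all with Run below, where that share is 4.19%. Apopt1, which protects complex IV assembly, was listed at no more than 0.0394 FPKM in Run and had 51.3, 70.0 and 62.9 in NR (limma adjusted p = 0.244). Apopt1 passed the filter of 3 libraries only through NR, so it could enter the test only with NR higher, and its difference is a description. It is counted in both the 2 and the 3, so these counts are a description too. Surf1, which acts early in complex IV assembly, had 55.0, 37.4 and 63.4 FPKM across NR and 0, 3.13 and 31.0 across Run (limma adjusted p = 0.978). Lyrm7, a chaperone of the Rieske protein of complex III, had 3.69, 12.1 and 20.1 FPKM across NR and 0.0197, 0 and 3.22 across Run (limma adjusted p = 0.965). In each case at least 1 Run library was at or near 0.

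Complex I, whose subunits are the closest group in kind, gave a like picture under the same fit. Of its 39 tested genes 0 passed, 1 had an unadjusted p under 0.05 and 17 had positive differences, with a median of -0.051 beside 0.089 for complexes II to V. The complex I list was taken by symbol alone, which does not settle the complex of a protein. It holds Ndufa4, which is also counted in the list of carriers. The difference of Ndufa4 is the median of both lists. The median residual SD was 0.933 on the log2 scale for complex I, 0.547 for complexes II to V and 1.98 over all tested genes. Among genes at the level of 100 FPKM or more it was 0.513 for 37 genes of complexes II to V and 0.634 for all 534. These medians were not tested against each other.

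Features that the choice by symbol did not use were also described, and not all of them were common to the genes. They lie on 18 chromosomes, with 6 on chromosome 7. Their transcripts are short, with a median of 652 bases over the 46 with an annotated coding transcript, against 2267 over all coding genes in the annotation. Promoter windows from 250 bases before to 50 after the start were at hand from RefSeq for 36 of the 49 genes, in 39 windows. They were searched on both strands for GCGCANGCGC, a motif of NRF1, a factor known for driving respiratory genes. N stands for any base, and the motif is a palindrome only where N is T. The windows were also searched for CCGGAAG, a motif of the ETS factors that include GABP. The NRF1 motif was in 10 of 39 windows (25.6%), against 6.38% of 21263 windows of protein-coding genes and 8 of 36 windows of complex I genes. The ETS motif was in 13 of 39 (33.3%), against 11.6% and 4 of 36. The half-site GCGCA, which the NRF1 motif contains, was in 25 of 39 (64.1%), against 37.98% and 22 of 36 in complex I. The windows compared were not matched for their content of G and C.

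Both motifs occurred together in the windows of Atp5h, Atp5k, Cox6a1 and Sdhd (10.3% of the windows, against 1.24% of those of protein-coding genes). The lines show the NRF1 match in capitals with 15 bases on each side for these 4 genes, as examples from 3 complexes, all upstream of the start and written 5′ to 3′ on the minus strand of GRCm38.p6. They lie at chr11:115420036-115420075, chr5:108434425-108434464, chr5:115349096-115349135 and chr9:50603904-50603943, and the matches begin 141, 50, 162 and 79 bases before the start (the first of 2 matches for Cox6a1).
Atp5h: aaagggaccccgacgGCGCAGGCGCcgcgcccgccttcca
Atp5k: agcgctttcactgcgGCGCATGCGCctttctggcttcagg
Cox6a1: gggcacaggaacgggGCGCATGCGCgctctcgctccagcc
Sdhd: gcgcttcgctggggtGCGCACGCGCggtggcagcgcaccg
A match describes these letters and shows no binding. The 4 genes had log2 differences of -0.061, 0.089, -0.46 and -1.16, none past the test.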

How the data were processed

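Polyadenylated RNA of sorted tdTomato-positive cells was copied by Smart-seq2, per the labels' protocols, in 3 NR and 3 Run libraries of 1 batch. The authors deposited FPKM values in 1 table with a column per library. The submitters' processing notes list Trimmomatic 0.39, STAR 2.7.5c, StringTie 2.1.7, DESeq2 and edgeR with genome build mm10, without roles, so the counter, annotation and filters are not given in the sources used here. A count could not be recovered: of low values scaled by transcript length, 10.4% to 14.4% lay within 5% of whole steps, where even spacing gives 10%. No 2 libraries were copies (at least 99.99% of values differed).

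Genes at FPKM of at least 1 in at least 3 libraries were fitted on log2(FPKM + 1) in limma 3.58.1 (R 4.3.3) with a mean-variance trend and no block, 2-sided. The fit was first run on simulated data, where only a small bias at the spread of abundant genes was required. Recovery of changed genes at the real spread was not a requirement. Nothing says that libraries came from separate animals, so the p-values describe spread among these libraries alone, and that spread may be technical. Positions came from GENCODE M21 for 47 genes and RefSeq (GRCm38.p6) for 2, both on the build of the files. Copies were aligned with Biopython 1.88, and plots used matplotlib 3.10.9. Values in every library are given for the 3 highest genes of each complex, isoform sets, the 10 smallest p and non-overlapping genes, and from each other list for the 3 smallest p. Outside that rule, Cox17, Slc25a4, Atpif1, Acta2 and the genes named as undetected were chosen after their values were seen. Members, lists and rules were chosen with earlier results of these data known. Promoters not used, having no entry: Atp5a1, Atp5mpl, Cox4i1, Cox4i2, Cox6a2, Cox6c, Cox6c2, Cox8c, Cyc1, Sdhc, Uqcrb, Uqcrc2 and Uqcrq.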

Additional observations from a re-analysis of the deposited data

How the results depend on the processing

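No gene and no subunit gene passed the adjusted threshold under any of the 14 alternatives (limma), where the smallest adjusted p was 0.0567 for any gene and 0.393 for a subunit gene. The 14 were 2 pseudocounts, 2 filters, 2 scalings, limma without a trend, the replicate block and 6 fits that each leave out a library. The number of subunit genes at an unadjusted p under 0.05 was 2 of 45 with a pseudocount of 0.1 (4.68% of all genes), 2 after quantile normalization (4.89%) and 2 after rescaling to the same nuclear sum (4.99%), in place of 1. It was 0 in limma without a trend (5.43%), 0 with the replicate block (4.08%), and 0 to 1 when a library was left out (4.80% to 6.46%). Atp5g1 had an unadjusted p under 0.05 in 1 of these 6 fits, the one without NR replicate 2. Leaving out Cox6c2, an alternative added after seeing the data, kept it at 1. The median log2 difference of the tested subunit genes was -0.024 to 0.27 when a library was left out, the highest without Run replicate 2. The share of positive differences was 70.5% without Run replicate 2 and 47.7% without NR replicate 3 or Run replicate 3, against 55.6% over all libraries. After quantile normalization the difference of Atp5g2 was -0.065, and after rescaling -0.031. Signs of 11 of the 26 named genes turned when a library was left out, with ranges of -0.11 to 0.37 for Atp5b, -0.57 to 0.48 for Atp5g2, -0.17 to 0.051 for Atp5h, -2.76 to 1.09 for Cox4i2, -0.69 to 0.066 for Cox7a2, -0.82 to 0.082 for Cox8a, -0.35 to 1.15 for Sdha, -1.09 to 0.15 for Sdhb, -0.27 to 0.20 for Uqcr10, -0.086 to 0.54 for Uqcr11, -1.0 to 0.42 for Uqcrh. The cause was not tested. The shared replicate numbers come from the titles alone. Deviations of same-numbered libraries correlated at 0.00416 to 0.0211 across genes, so the numbers were not taken as pairs, although each library correlated best with its own number. With the block 251 genes had an unadjusted p under 0.05 in place of 304. FPKM values carry no read totals, so counting error is unknown, and 3 libraries a group limit the precision.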

Other observations

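The enzymes that feed the chain were detected unevenly. Of 17 enzymes of the citrate cycle and pyruvate dehydrogenase, 8 reached FPKM 1 in all 6 libraries. Of the 13 tested, 0 passed by limma, 1 had an unadjusted p under 0.05 (4.94% of all genes) and 8 had positive differences (48.9% of all genes). Pdha1, the E1 alpha subunit through which pyruvate enters the mitochondrial pathway, had 0, 3.09 and 8.999 FPKM across NR replicates 1 to 3 and 135, 97.6 and 152 across those of Run, a log2 difference of 5.21 ± 1.15 (SE) (limma adjusted p = 0.246). All 3 Run libraries lay above all NR libraries, as for 4.76% of all tested genes. Its partner Pdhb had 0.295, 25.2 and 126 FPKM across NR and 83.5, 55.1 and 107 across Run, low in NR replicate 1 and overlapping otherwise. Idh2, a mitochondrial isocitrate dehydrogenase, had 161, 166 and 218 FPKM across NR and 47.9, 67.0 and 257 across Run.

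Several regulators of respiratory genes were listed well above FPKM 1 in some libraries and at or near 0 in others. Of 14, none reached FPKM 1 in all 6 libraries and 3 were tested, with 0 passing by limma and 0 at an unadjusted p under 0.05. Tfb2m, a factor for mitochondrial transcription, had 39.8, 40.2 and 16.4 FPKM across NR and 46.8, 0 and 0 across Run. Hif1a, the oxygen-sensing factor, had 1.01, 20.8 and 0 FPKM across NR and 28.6, 1.43 and 11.7 across Run, and Gabpa, the DNA-binding part of GABP, had 0.00856, 0 and 8.77 FPKM across NR and 4.11, 20.5 and 0 across Run. Outside the rule for named genes, and chosen after their values were seen, Ppargc1a, the coactivator most often tied to exercise, had 78.2, 20.3 and 0.00616 FPKM across NR and 0.0128, 0 and 0.00579 across Run, and Nrf1 had 0, 0 and 0.0139 FPKM across NR and 0, 59.7 and 67.2 across Run.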
